A study of Mus musculus with 6 samples.

Results

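The genes described here are 10 immediate early genes of the EGR, NR4A, IER and DUSP families, read in mouse splenic B cells that carried a retrovirus with Sox2. They are Egr1, Egr2, Egr3, Nr4a1, Nr4a3, Ier2, Ier3, Dusp1, Dusp2 and Dusp5, taken by symbol from the 37620 genes of the deposited count table, where each symbol has 1 row. All 10 passed the filter on low counts. The mice were C57Bl/6, 4 months old. Their B cells were stimulated in culture with anti-CD40 and IL-4, spin-infected at 24 h and again at 48 h, and sorted at 96 h by mCherry, which stood for infection. The tested cells received pMIR-Sox2 (3 libraries) and their controls the empty vector pMIR (3 libraries), so stimulation, infection and sorting were shared by both groups. Total RNA was sequenced. Whether replicates came from separate animals is not in the labels, and the p-values therefore measure only how far these libraries spread, which may be technical.

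Immediate early genes are transcribed within minutes of a stimulus without new protein synthesis, mostly through MAP kinases acting on SRF with its ETS partners and on CREB, and through calcium and NFAT. EGR proteins are zinc finger transcription factors, NR4A proteins are nuclear receptors that work without a known endogenous ligand, and DUSP proteins are phosphatases that remove the activating phosphates of MAP kinases. In B cells the antigen receptor and CD40 induce many of them, and EGR2, EGR3 and NR4A1 are known for restraining lymphocyte responses. In a bulk sample, fewer cells that express a gene and less RNA per cell cannot be told apart.

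Reads assigned to genes numbered 17153805 to 20770447 in pMIR-Sox2 libraries and 21421769 to 27692437 in pMIR libraries. Sox2 itself was read at 989, 786 and 624 CPM in pMIR-Sox2 replicates 1 to 3 and at 0.738, 0.334 and 1.78 CPM in pMIR replicates 1 to 3. CPM is a gene's count scaled to the effective size of its library, in which the TMM factor is included. Of 7 B cell markers, 5 fell and 1 (Pax5) rose, and their summed level was 2344 to 2942 CPM in pMIR-Sox2 and 3676 to 4684 CPM in pMIR. The T cell genes Cd3d, Cd3e, Cd3g, Cd4, Cd8a and Cd8b1 were each at 0 to 0.238 CPM in the 6 libraries, and the whole T cell list summed to 7.67 to 16.7 CPM in pMIR-Sox2 and 13.3 to 27.5 CPM in pMIR, mostly from Cd2 and Cd28. The myeloid list summed to 29.8 to 36.5 CPM in pMIR-Sox2 and 18.5 to 21.8 CPM in pMIR, with 3 of 4 tested genes higher, most of the sum in Emr1, and S100a8 and S100a9 at 0. The dendritic cell list summed to 5.47 to 6.92 CPM in pMIR-Sox2 and 9.79 to 17.3 CPM in pMIR, nearly all of it Flt3. The NK, erythroid and platelet, and stromal lists each summed to at most 2.22 CPM in any library, with Ncr1, Hba-a1, Hba-a2 and Col3a1 at 0. The part of these marker differences in the results below was not tested.

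Promoter windows of 300 bases, from 250 before to 50 after a RefSeq start (GRCm38.p6), were at hand for 7 of the 10 genes: Egr2, Nr4a1, Nr4a3, Ier3, Dusp1, Dusp2 and Dusp5. The windows below are shown because they hold letter matches to elements through which signals switch on immediate early genes. They belong to 3 genes that fell in pMIR-Sox2 cells (Egr2, Dusp5 and Nr4a1) and 2 that did not pass the test (Nr4a3 and Dusp1). Dusp2, which also fell, held such a match too, and its window is not printed. Capitals mark the CArG box, which binds SRF, and the core of the cyclic AMP response element, TGACG on either strand. They are read 5′ to 3′ along the gene.
Egr2 (chr10:67537619-67537918, + strand): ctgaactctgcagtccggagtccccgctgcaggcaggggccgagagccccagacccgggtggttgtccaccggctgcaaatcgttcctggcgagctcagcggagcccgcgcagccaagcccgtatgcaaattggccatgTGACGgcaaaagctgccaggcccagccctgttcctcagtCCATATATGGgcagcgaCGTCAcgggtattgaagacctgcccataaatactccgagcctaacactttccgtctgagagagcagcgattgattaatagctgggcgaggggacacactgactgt
Dusp5 (chr19:53528895-53529194, + strand): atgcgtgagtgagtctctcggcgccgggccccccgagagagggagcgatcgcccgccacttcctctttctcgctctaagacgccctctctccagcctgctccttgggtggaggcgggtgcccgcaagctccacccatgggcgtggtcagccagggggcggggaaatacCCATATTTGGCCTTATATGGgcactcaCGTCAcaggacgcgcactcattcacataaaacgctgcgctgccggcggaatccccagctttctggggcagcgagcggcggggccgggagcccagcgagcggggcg
Nr4a1 (chr15:101266596-101266895, + strand): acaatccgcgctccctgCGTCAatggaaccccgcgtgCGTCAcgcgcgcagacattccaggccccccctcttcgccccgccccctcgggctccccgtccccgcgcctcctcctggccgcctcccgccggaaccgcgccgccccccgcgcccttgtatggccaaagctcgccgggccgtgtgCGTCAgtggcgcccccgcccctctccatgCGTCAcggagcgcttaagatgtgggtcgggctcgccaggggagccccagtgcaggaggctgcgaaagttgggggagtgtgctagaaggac
Nr4a3 (chr4:48045055-48045354, + strand): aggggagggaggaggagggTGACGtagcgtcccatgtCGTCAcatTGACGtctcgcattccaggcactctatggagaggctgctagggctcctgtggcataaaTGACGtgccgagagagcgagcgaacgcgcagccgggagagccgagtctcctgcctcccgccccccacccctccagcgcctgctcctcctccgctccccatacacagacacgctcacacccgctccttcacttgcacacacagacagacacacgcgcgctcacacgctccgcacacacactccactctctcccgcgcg
Dusp1 (chr17:26508423-26508722, - strand): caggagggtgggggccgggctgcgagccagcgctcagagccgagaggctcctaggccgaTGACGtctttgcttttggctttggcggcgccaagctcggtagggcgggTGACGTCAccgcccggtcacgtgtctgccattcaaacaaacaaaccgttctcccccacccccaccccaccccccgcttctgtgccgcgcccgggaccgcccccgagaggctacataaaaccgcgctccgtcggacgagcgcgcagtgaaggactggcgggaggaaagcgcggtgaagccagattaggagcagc

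A CArG box stood in the windows of 2 of the 7 genes, Egr2 and Dusp5. In Dusp5 a pair of boxes lay side by side, beginning 82 and 72 bases before the start. In the printed Egr2 window, 1 of 5 that RefSeq gives for this gene, the box began 72 bases before the start with a response element core on each side of it. A CArG box is in a window of 1.81% of the 27025 genes in the promoter table. The core TGACG was present in 6 of the 7 genes (all but Ier3), against 23.0% of all genes. Nr4a1 held it 4 times and Nr4a3 4 times. The full palindrome TGACGTCA, which overlaps the core, was found in Dusp1 alone of the 7, against 2.03% of all genes. The EGR motif GCGGGGGCG was in Nr4a1 and Dusp2 (3.31% of all genes). Neither SOX motif searched, AACAAT (12.2% of all genes) or ACAAAG (21%), matched any of these windows, nor did the NR4A motif AAAGGTCA (1.7%) or GCGTGGGCG (0.707%). Both strands were searched. These are matches of letters and show no binding.

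Of the 10 genes, 6 fell in pMIR-Sox2 cells (Egr2, Egr3, Nr4a1, Ier2, Dusp2 and Dusp5), 0 rose, and 4 did not pass the threshold (Egr1, Nr4a3, Ier3 and Dusp1). The test was edgeR's quasi-likelihood test on pMIR-Sox2 and pMIR libraries, without the replicate number, adjusted by Benjamini-Hochberg over 12899 genes. A gene rose or fell where its adjusted p was under 0.05. Over all genes tested, 20.0% fell and 23.2% rose, or 43.2% in either direction. By over 2-fold, 5 of the 10 fell, against 5.10% of all genes tested. None of the 10 was higher at an unadjusted p under 0.05 in edgeR, by the DESeq2 Wald test or by limma-voom (0 in each). Every pMIR-Sox2 library lay below every pMIR library in 6 of the 10, which are the same 6 that fell, and in 27.6% of all genes tested. In 0 of the 10 did every pMIR-Sox2 library lie above every pMIR library, against 28.9% of all genes tested. The median log2 fold change was -1.18 over the 10 genes and -0.02 over all genes tested. Within the EGR, NR4A, IER and DUSP families alike, some members fell and others did not pass. Not passing does not by itself show a smaller change. Dusp1, which did not pass, had a log2 fold change of -0.70 ± 0.34 (SE), and Ier2, which fell, had -0.71 ± 0.15.

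**Figure D1:**
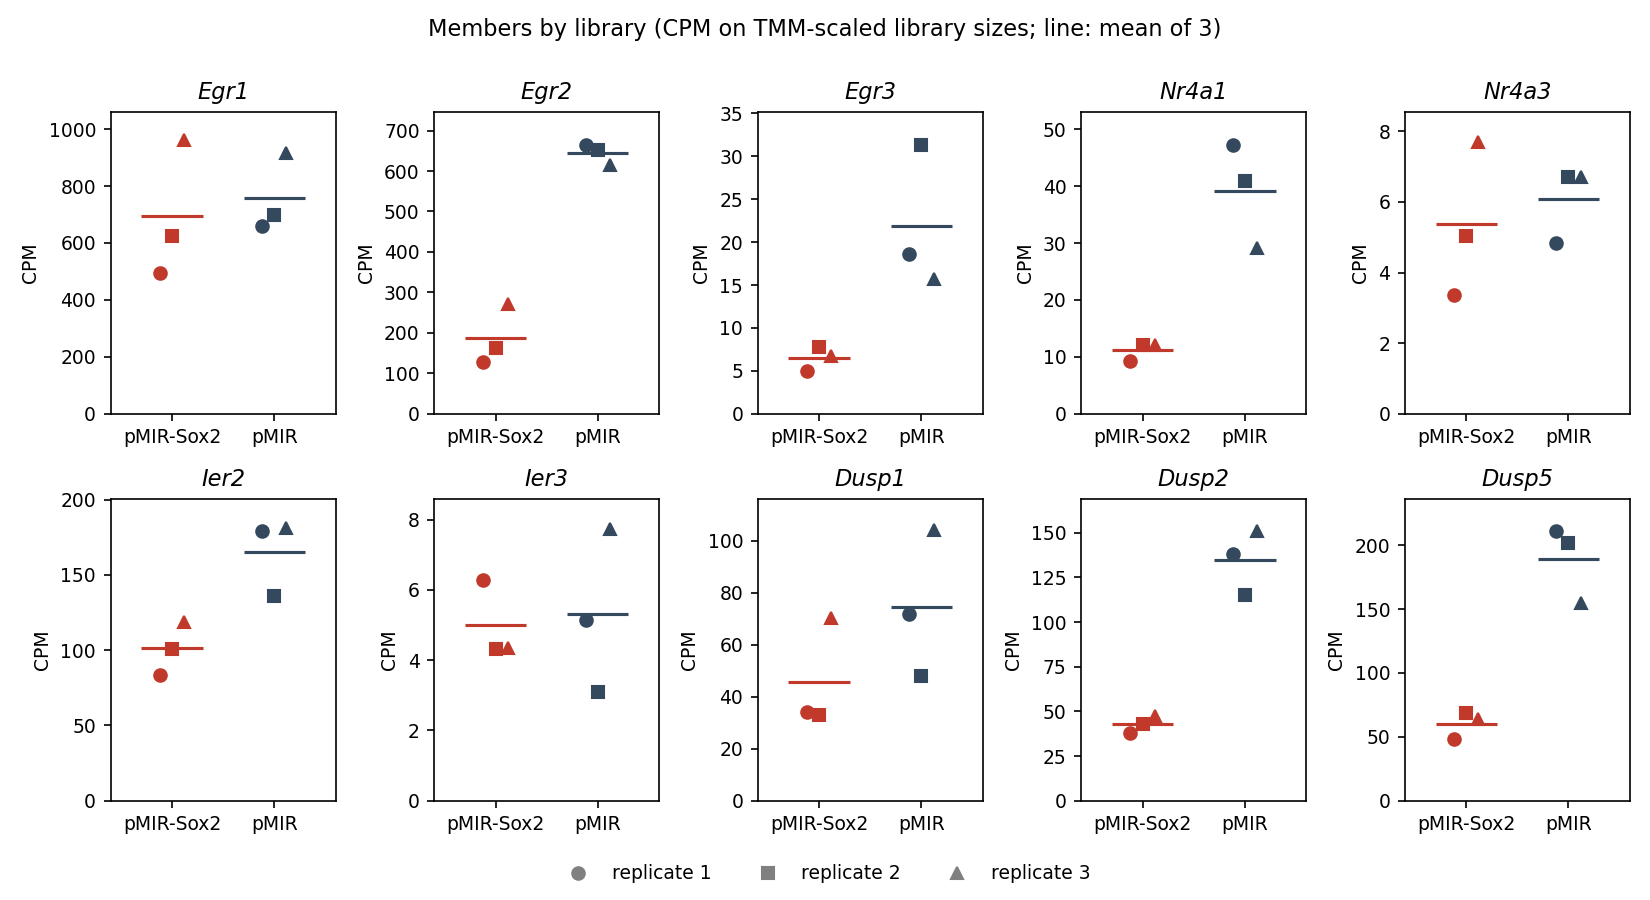
Level of each of the 10 genes in CPM (vertical axes, from 0, each panel on its own scale), with pMIR-Sox2 libraries in red on the left and pMIR libraries in dark blue on the right; marker shapes give the replicate and the line is the mean of 3. The groups stand apart for Egr2, Egr3, Nr4a1, Ier2, Dusp2 and Dusp5 and overlap for Egr1, Nr4a3, Ier3 and Dusp1.

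Of the EGR genes, Egr2 and Egr3 fell and Egr1 did not pass. Egr2, a zinc finger factor that limits lymphocyte activation, was read at 128, 163 and 270 CPM in pMIR-Sox2 replicates 1 to 3, against 665, 652 and 615 CPM in pMIR replicates 1 to 3. The pMIR libraries lay close together (187 ± 74.2 CPM in pMIR-Sox2 and 644 ± 25.8 CPM in pMIR, SD, n = 3 each), and the highest pMIR-Sox2 library, replicate 3, was still well below the lowest of pMIR. The log2 fold change was -1.78 ± 0.24 (SE, edgeR adjusted p = 0.000559), which is 29.0% of the pMIR level.

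Egr1, the family member that most growth and antigen receptor signals induce, was read at 496, 624 and 960 CPM in pMIR-Sox2 replicates 1 to 3 and at 661, 697 and 916 CPM in pMIR replicates 1 to 3. The groups overlapped, with replicate 3 the highest library in each. Its log2 fold change was -0.13, with a 95% interval from -0.66 to 0.40 and an edgeR adjusted p of 0.68, so a change of the size seen for Egr2 lay outside the interval while smaller ones in either direction lay inside. Without pMIR replicate 3 the value was 0.03, and without pMIR-Sox2 replicate 1 it was 0.07.

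Egr3, which shares functions with Egr2 in lymphocytes, was read at 4.92, 7.74 and 6.67 CPM in pMIR-Sox2 and at 18.6, 31.3 and 15.7 CPM in pMIR (replicates 1 to 3). The pMIR libraries spread widely, with replicate 2 the highest, and the groups did not overlap. Egr3 fell by 1.77 ± 0.28 on the log2 scale (adjusted p = 0.00119).

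That Egr2 fell and Egr1 did not pass does not by itself show that they changed differently. The make-up of the EGR transcripts was therefore read within each library. Per kilobase of exon, which allows genes of different length to be compared, Egr1 made up 74.0, 73.7 and 72.5% of the summed level of the 3 EGR genes in pMIR-Sox2 replicates 1 to 3, against 42.5, 43.9 and 52.5% in pMIR. Egr2 took 25.2, 25.4 and 27% in pMIR-Sox2, against 56.3, 54.1 and 46.5% in pMIR. The summed level was 211 ± 75.4 CPM per kilobase in pMIR-Sox2 and 364 ± 22.3 in pMIR. A ratio of counts within 1 library does not depend on how libraries are scaled. Egr2 to Egr1 was 0.258, 0.261 and 0.282 in pMIR-Sox2, against 1.01, 0.935 and 0.671 in pMIR, a log2 difference of -1.69. In a two-sided exact permutation test of 3 libraries against 3, p was 0.1, the smallest this design allows, and 0.2 after Benjamini-Hochberg adjustment over the 6 ratios computed. Egr3 to Egr2 was 0.0384, 0.0475 and 0.0246 in pMIR-Sox2 and 0.0280, 0.0480 and 0.0255 in pMIR, with overlap (exact p = 1, adjusted over the 6 ratios 1).

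The remaining EGR gene and the corepressors that bind EGR proteins came from a list with the other NR4A gene. Of these 4 genes, 1 fell (25%), 1 rose (25%) and 2 did not pass (median log2 fold change -0.94, against -0.02 over all genes tested). Those shares were near the 20.0% that fell and 23.2% that rose over all genes tested. Nab2, a corepressor that EGR factors themselves induce, fell to 7.58 ± 2.04 CPM in pMIR-Sox2, against 21.1 ± 2.56 CPM in pMIR (log2 fold change -1.48, edgeR adjusted p = 0.000459). Nab1, its constitutive relative, rose to 298 ± 33.8 CPM in pMIR-Sox2, against 200 ± 37.4 CPM in pMIR (0.58, adjusted p = 0.0122). The call for Nab1 was lost without pMIR replicate 1 (adjusted p = 0.0535) and without pMIR replicate 3 (0.0569). Egr4 had 6, 4 and 49 counts in pMIR-Sox2 replicates 1 to 3 and 72, 49 and 111 counts in pMIR, with replicate 3 high in both groups (adjusted p = 0.106). Nr4a2 averaged 1.14 ± 0.461 CPM in pMIR-Sox2 and 1.48 ± 0.316 CPM in pMIR (adjusted p = 0.377). With the replicate number as a block, 2 of the 4 fell, and 2 also fell without pMIR-Sox2 replicate 3.

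Nr4a1, which encodes NUR77 and reports antigen receptor signalling in lymphocytes, was read at 9.23, 12.1 and 12.1 CPM in pMIR-Sox2 replicates 1 to 3, against 47.3, 41.0 and 29.2 CPM in pMIR. The 3 pMIR-Sox2 libraries were close to each other and all below the lowest of pMIR. Its log2 fold change, -1.82 ± 0.19 (adjusted p = 0.00014), was the lowest of the 10, with an interval (-2.25 to -1.39) that overlaps those of Egr2, Egr3, Dusp2 and Dusp5.

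Nr4a3, which encodes NOR1, was the scarcest of the 10 per kilobase of exon in either group. It was read at 3.35, 5.03 and 7.71 CPM in pMIR-Sox2 and at 4.83, 6.72 and 6.72 CPM in pMIR, from 73 to 133 counts per library in pMIR-Sox2 and 131 to 141 in pMIR. The groups overlapped, and the pMIR-Sox2 libraries spanned the whole range (log2 fold change -0.19, interval -0.85 to 0.47, adjusted p = 0.627). Without pMIR-Sox2 replicate 1 the value was 0.07. Nr4a3 to Nr4a1 counts stood at 0.363, 0.417 and 0.639 in pMIR-Sox2, against 0.102, 0.164 and 0.230 in pMIR, a log2 difference of 1.55 without overlap (exact p = 0.1, adjusted over the 6 ratios 0.2). Per kilobase, Nr4a3 made up 21.5 ± 5.11% of the summed level of Nr4a1 and Nr4a3 in pMIR-Sox2 and 8.76 ± 3.11% in pMIR.

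**Figure D2:**
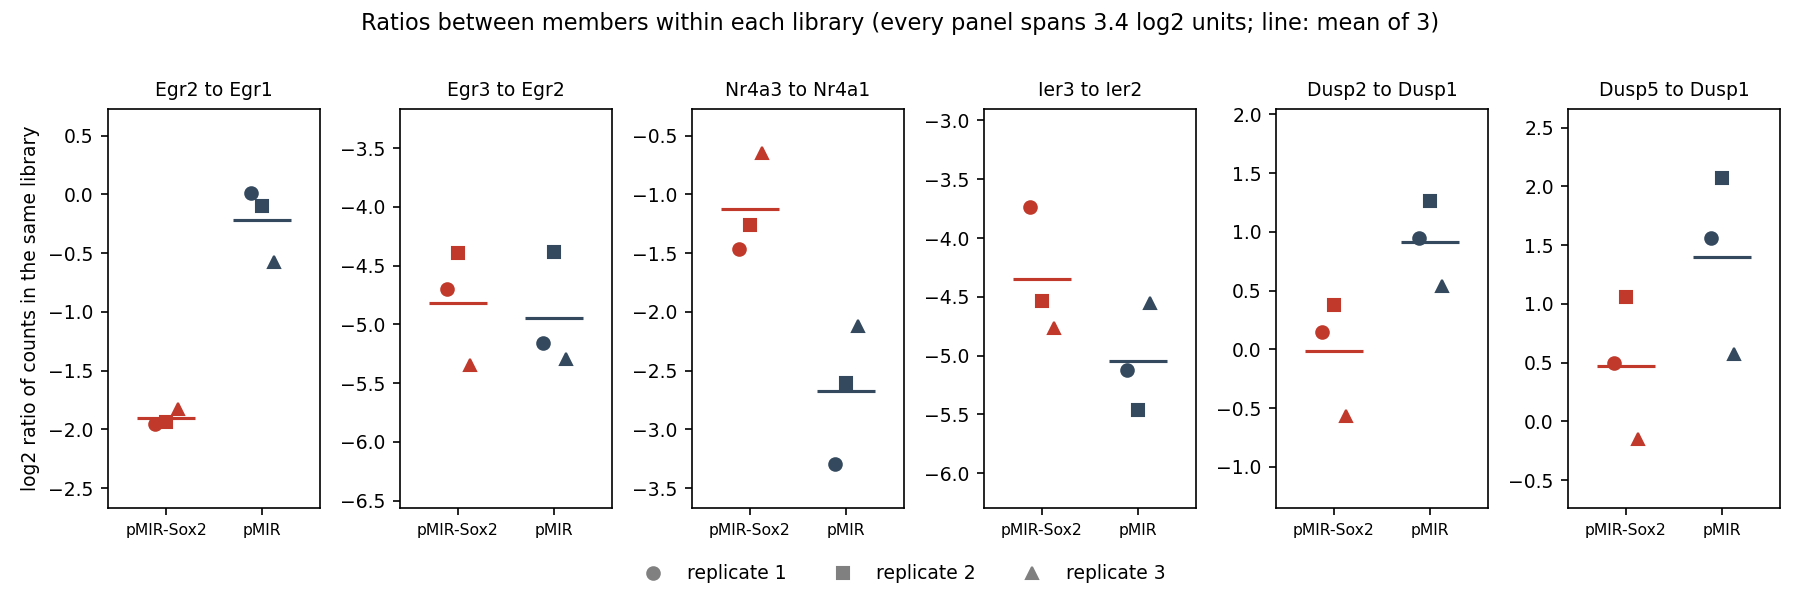
Log2 ratio of the counts of 2 genes in the same library (vertical axis; each panel covers the same span), with pMIR-Sox2 libraries on the left and pMIR libraries on the right, markers by replicate and lines at the mean of 3. Groups are apart for Egr2 to Egr1, Nr4a3 to Nr4a1 and Dusp2 to Dusp1 and overlap for the other 3 ratios.

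Ier2 and Ier3 are small immediate early genes, the first encoding a nuclear protein and the second a stress-inducible regulator of cell survival. Ier2 was read at 83.8, 101 and 119 CPM in pMIR-Sox2 replicates 1 to 3, against 179, 136 and 181 CPM in pMIR. The groups did not overlap, but the gap between the nearest libraries was small beside the spread within each group. It fell by 0.71 ± 0.15 on the log2 scale (adjusted p = 0.00552), the smallest fall among the 6 genes that fell. Ier3 was read at 6.29, 4.33 and 4.35 CPM in pMIR-Sox2 and at 5.13, 3.10 and 7.73 CPM in pMIR. Its pMIR-Sox2 libraries lay within the range of pMIR (log2 fold change -0.09, interval -0.80 to 0.63, adjusted p = 0.844). The value was 0.27 without pMIR replicate 3. Leaving out pMIR-Sox2 replicate 2 or replicate 3 gave 0.01. The ratio of Ier3 to Ier2 counts was 0.0751, 0.043 and 0.0367 in pMIR-Sox2 replicates 1 to 3 and 0.0287, 0.0227 and 0.0426 in pMIR. The groups overlapped, and replicate 3 went the other way from replicates 1 and 2 (exact p = 0.2, adjusted over the 6 ratios 0.24).

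Dusp2 and Dusp5 are nuclear phosphatases, and Dusp5 acts on ERK. Dusp2, also called PAC1 and typical of activated lymphocytes, was read at 37.9, 42.8 and 47.6 CPM in pMIR-Sox2 replicates 1 to 3, against 138, 115 and 151 CPM in pMIR. Both groups were tight, and its SE was the smallest of the 10 (log2 fold change -1.66 ± 0.13, adjusted p = 4.04e-05). Dusp5 was read at 48.2, 68.5 and 63.6 CPM in pMIR-Sox2 replicates 1 to 3, against 211, 202 and 155 CPM in pMIR. It fell by the same amount (-1.66 ± 0.16, adjusted p = 0.000103), and no library of one group reached the other. The exons of Dusp5 overlap those of an antisense gene in GENCODE M21 that was not analysed here, and since the strand setting of the counting is not given, reads of the antisense gene cannot be told apart.

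Dusp1, which encodes MKP-1, a phosphatase that prefers p38 and JNK, was read at 34.1, 32.9 and 70.4 CPM in pMIR-Sox2 replicates 1 to 3 and at 71.7, 47.9 and 104 CPM in pMIR. The highest pMIR-Sox2 library, replicate 3, lay above the lowest of pMIR, replicate 2. The log2 fold change was -0.70 ± 0.34 (interval -1.47 to 0.06, adjusted p = 0.122). Libraries of the same replicate number differed by -1.07, -0.54 and -0.56 on the log2 scale. In the fit with the replicate number as a block Dusp1 fell by 0.73 (edgeR adjusted p = 7.34e-05), and it fell by 1.14 without pMIR-Sox2 replicate 3 (0.00851). With the block 3314 of all genes tested fell, against 2577 without it. Its exons overlap those of Ergic1 on the opposite strand, which holds 8936 counts over the 6 libraries. Dusp2 to Dusp1 counts stood at 1.11, 1.30 and 0.676 in pMIR-Sox2, against 1.93, 2.40 and 1.45 in pMIR (exact p = 0.1, adjusted over the 6 ratios 0.2). Dusp5 to Dusp1 counts stood at 1.41, 2.08 and 0.904 in pMIR-Sox2 replicates 1 to 3 and at 2.95, 4.20 and 1.49 in pMIR. The groups overlapped only between libraries of different number. In 3 of 3 pairs the pMIR-Sox2 library was below the pMIR library of the same number, a count that was not tested. The exact permutation test, which ignores the pairs, gave p = 0.2 (adjusted 0.24).

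**Figure D3:**
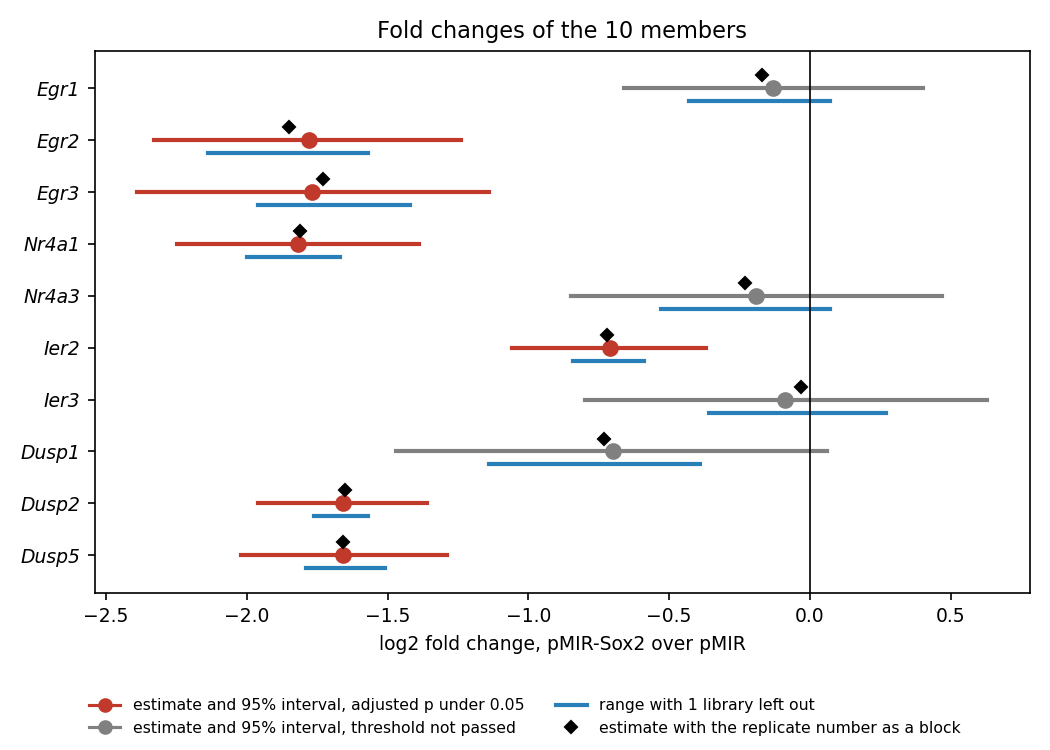
Log2 fold change of pMIR-Sox2 over pMIR (horizontal axis) for each of the 10 genes, with its 95% interval in red where the adjusted p was under 0.05 and grey where not; blue lines span the values with 1 library left out and black diamonds are from the fit with a replicate block. Egr2, Egr3, Nr4a1, Dusp2 and Dusp5 lie between -1.82 and -1.66, Ier2 at -0.71, and the blue lines of Egr1, Nr4a3 and Ier3 cross 0.

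Set in order per kilobase of exon, the pMIR-Sox2 means were Egr1 (155 ± 53.5 CPM per kilobase), Ier2 (66.4 ± 11.4), Egr2 (55.1 ± 21.8), Dusp5 (24.3 ± 4.28), Dusp2 (21.3 ± 2.43), Dusp1 (13.8 ± 6.43), Ier3 (4.41 ± 0.999), Nr4a1 (3.17 ± 0.465), Egr3 (1.46 ± 0.323) and Nr4a3 (0.896 ± 0.367). In pMIR the order was Egr2 (189 ± 7.60), Egr1 (169 ± 30.8), Ier2 (109 ± 16.6), Dusp5 (76.6 ± 12.2), Dusp2 (67.3 ± 9.10), Dusp1 (22.5 ± 8.47), Nr4a1 (11.2 ± 2.61), Egr3 (4.96 ± 1.89), Ier3 (4.70 ± 2.05) and Nr4a3 (1.02 ± 0.182). In pMIR-Sox2 the SDs of neighbours overlapped between Ier2 and Egr2, Dusp5 and Dusp2, Dusp2 and Dusp1, Ier3 and Nr4a1, and Egr3 and Nr4a3. In pMIR they overlapped for Egr2 and Egr1, Dusp5 and Dusp2, and Egr3 and Ier3. Both genes of a pair were read in the same libraries, so overlapping SDs do not show that their order changed. Of the summed DUSP level per kilobase, Dusp2 made up 38.8, 36.2 and 33.6% in pMIR-Sox2 replicates 1 to 3. Dusp1 made up 21.2, 16.8 and 30.1% there, below Dusp2 in each. By its mean Egr2 stood behind Egr1 and Ier2 in pMIR-Sox2 and first in pMIR. Exon lengths are from GENCODE M21 on GRCm38, another build than that of the counts.

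Replicate 3 of pMIR-Sox2, the library with the lowest Sox2 level of the 3, had the highest level of Egr1, Egr2, Nr4a3, Ier2, Dusp1 and Dusp2 within its group. Replicate 3 of pMIR was likewise the highest of its group for Egr1, Ier2, Dusp1 and Dusp2, so for these 4 genes the high library had the same number in both groups. No relation to the Sox2 level was tested. The centred mean of the 10 genes on the log2 scale was -0.81, -0.54 and -0.23 in pMIR-Sox2 replicates 1 to 3 and 0.54, 0.44 and 0.61 in pMIR. Among 10028 genes, the 5 whose centred profile over the 6 libraries came closest to this mean were Zfp36l1 (root mean square distance 0.0463 log2 units), Mvd (0.0632), Slc3a2 (0.0739), Cd48 (0.0819) and Fhl3 (0.0879). Their log2 fold changes lay between -1.12 and -0.97, while those of the 10 genes ran from -1.82 to -0.09. Closeness to the mean is therefore not likeness to any single gene of the 10. Zfp36l1, which encodes a protein that promotes mRNA decay and is itself an immediate early gene, was at 401 ± 72.8 CPM in pMIR-Sox2 and 847 ± 41.1 CPM in pMIR (log2 fold change -1.08). It is counted again in the list of other immediate early genes below.

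The other genes of the pathway came from lists written with the 10 genes in mind. The MAP kinase phosphatases outside the set went both ways, with 3 of 6 tested falling (50%), 2 rising (33.3%) and 1 not passing. Of all genes tested, 20.0% fell and 23.2% rose. The 1 that did not pass was Dusp9 (1.89 ± 0.0822 CPM in pMIR-Sox2 and 1.21 ± 0.428 CPM in pMIR). Dusp4, a nuclear ERK phosphatase, fell to 33.0 ± 2.37 CPM in pMIR-Sox2, against 120 ± 22.2 CPM in pMIR (log2 fold change -1.87, adjusted p = 3.74e-05). Dusp6, the cytoplasmic ERK phosphatase, rose to 80.9 ± 20.8 CPM in pMIR-Sox2, against 27.3 ± 5.76 CPM in pMIR (1.57, adjusted p = 0.000518), and Dusp16, which prefers JNK, rose as well (0.88). Dusp7 (-0.86), another cytoplasmic ERK phosphatase, and Dusp10 (-0.79), which acts on p38 and JNK, fell. With no filter on low counts Dusp10 missed the threshold (adjusted p = 0.0598), as it did when pMIR replicate 3 (0.0701) or pMIR-Sox2 replicate 2 (0.0794) was left out.

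Of 42 other immediate early genes tested, 18 fell (42.9%), 3 rose (7.14%) and 21 did not pass. The median log2 fold change was -0.55, against -0.02 over all genes tested. Of all genes tested, 20.0% fell and 23.2% rose. With 1 library left out, 14 to 25 of the list fell. Junb, an AP-1 subunit, fell to 240 ± 29.6 CPM in pMIR-Sox2, against 672 ± 70.1 CPM in pMIR (-1.48, adjusted p = 5.8e-05). The kinase genes Pim1 (-1.03) and Plk3 (-1.01) fell too. The 3 that rose were Trib1, a pseudokinase gene (0.80), Jun, another AP-1 subunit (509 ± 112 CPM in pMIR-Sox2 and 319 ± 64.9 CPM in pMIR, 0.68), and Irf1, an interferon regulatory factor (0.31). Only 1 of the list rose without pMIR replicate 1 or without pMIR replicate 2, since Jun (adjusted p = 0.0601 and 0.0541) and Irf1 (0.11 and 0.13) then missed the threshold. Irf1 missed it also without pMIR-Sox2 replicate 1 (0.0571) and replicate 2 (0.0897).

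Of 26 genes of the cascade from RAS to ERK, with SRF and its ETS partners, 7 fell (26.9%), 8 rose (30.8%) and 11 did not pass (median -0.06). Over all genes tested 20.0% fell and 23.2% rose, so the list as a whole gave a mix not far from the background. The number that rose was 5 without pMIR replicate 1. Rasgrp1, a RAS activator best known from T cells, fell to 29.3 ± 1.84 CPM in pMIR-Sox2, against 51.2 ± 3.94 CPM in pMIR (-0.80), while Rasgrp3, its B cell counterpart, rose to 226 ± 15.1 CPM in pMIR-Sox2, against 132 ± 1.73 CPM in pMIR (0.78). The adaptor gene Grb2 fell as well (-0.80). Of the RSK kinases below ERK, Rps6ka1 fell (-0.71) and Rps6ka3 rose to 121 ± 22.1 CPM in pMIR-Sox2, against 31.5 ± 2.59 CPM in pMIR (1.94, adjusted p = 3.32e-05). Srf, named after its values were seen because the CArG box is its site, fell to 97.3 ± 4.67 CPM in pMIR-Sox2, against 146 ± 19.1 CPM in pMIR (-0.59, adjusted p = 0.00327).

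Of 16 genes of the p38 and JNK cascades, 3 fell (18.8%), 3 rose (18.8%) and 10 did not pass (median -0.05), shares near those over all genes tested (20.0% and 23.2%). In the fit with the replicate block 5 of them rose. Map3k5, the kinase ASK1, fell to 33.6 ± 2.33 CPM in pMIR-Sox2, against 73.4 ± 5.17 CPM in pMIR (-1.13), as did Mapkapk3 (-0.69) and Rps6ka4 (-0.49). Rps6ka5, the kinase MSK1 that phosphorylates CREB and histone H3 at immediate early genes, rose to 25.7 ± 1.10 CPM in pMIR-Sox2, against 7.39 ± 0.343 CPM in pMIR (1.80, adjusted p = 1.74e-05). Mapk9, which encodes JNK2, rose by 1.21 and Mapkapk2 by 0.36. The call for Mapkapk2 was lost without pMIR replicate 2 (adjusted p = 0.0593) and without pMIR replicate 3 (0.0717).

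Of 14 brakes on RAS, 4 fell (28.6%), 5 rose (35.7%) and 5 did not pass (median 0.38). Of all genes tested, 20.0% fell and 23.2% rose (median -0.02). Spred1 rose to 65.7 ± 6.23 CPM in pMIR-Sox2, against 28.6 ± 4.91 CPM in pMIR (1.20), and Spred2 rose by 1.10. Rasa1, a GTPase activating protein of RAS, also rose by 1.10, whereas Rasa2 (-0.93) fell. The adaptor genes Dok1 (-0.74) and Dok2 (-1.41) fell. Spry1, named after its values were seen, had 131, 226 and 84 counts in pMIR-Sox2 replicates 1 to 3, against 4, 8 and 16 counts in pMIR.

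Of 11 calcineurin and NFAT genes, 5 fell (45.5%), 1 rose (9.09%) and 5 did not pass (median -0.21). Of all genes tested, 20.0% fell and 23.2% rose (median -0.02). Nfatc1 fell to 97.1 ± 6.49 CPM in pMIR-Sox2, against 149 ± 6.95 CPM in pMIR (-0.61), and so did the calcineurin subunit genes Ppp3r1 (-0.81) and Ppp3cc (-0.70). Rcan3, of a family that binds calcineurin, rose (0.97). The falls numbered 3 with library totals only, and also when pMIR replicate 1 or 2 or pMIR-Sox2 replicate 2 or 3 was left out. The rises numbered 3 with the replicate block, 2 with library totals only and 2 without pMIR-Sox2 replicate 3. Of 12 heat shock genes, which respond to stress on cells, 1 fell (8.33%), 0 rose and 11 did not pass (median -0.26). The 1 that fell was Hspe1 (-0.34, edgeR adjusted p = 0.0353). With the replicate block 6 of the 12 fell. The number was 0 with library totals only and when pMIR replicate 1 or 3 or pMIR-Sox2 replicate 1 was left out. It was 2 without pMIR replicate 2, and leaving out pMIR-Sox2 replicate 3 gave 3. Hspe1 missed the threshold also without pMIR-Sox2 replicate 2 (adjusted p = 0.0939). The part of the heat shock differences in the values of the 10 genes was not tested.

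**Figure D4:**
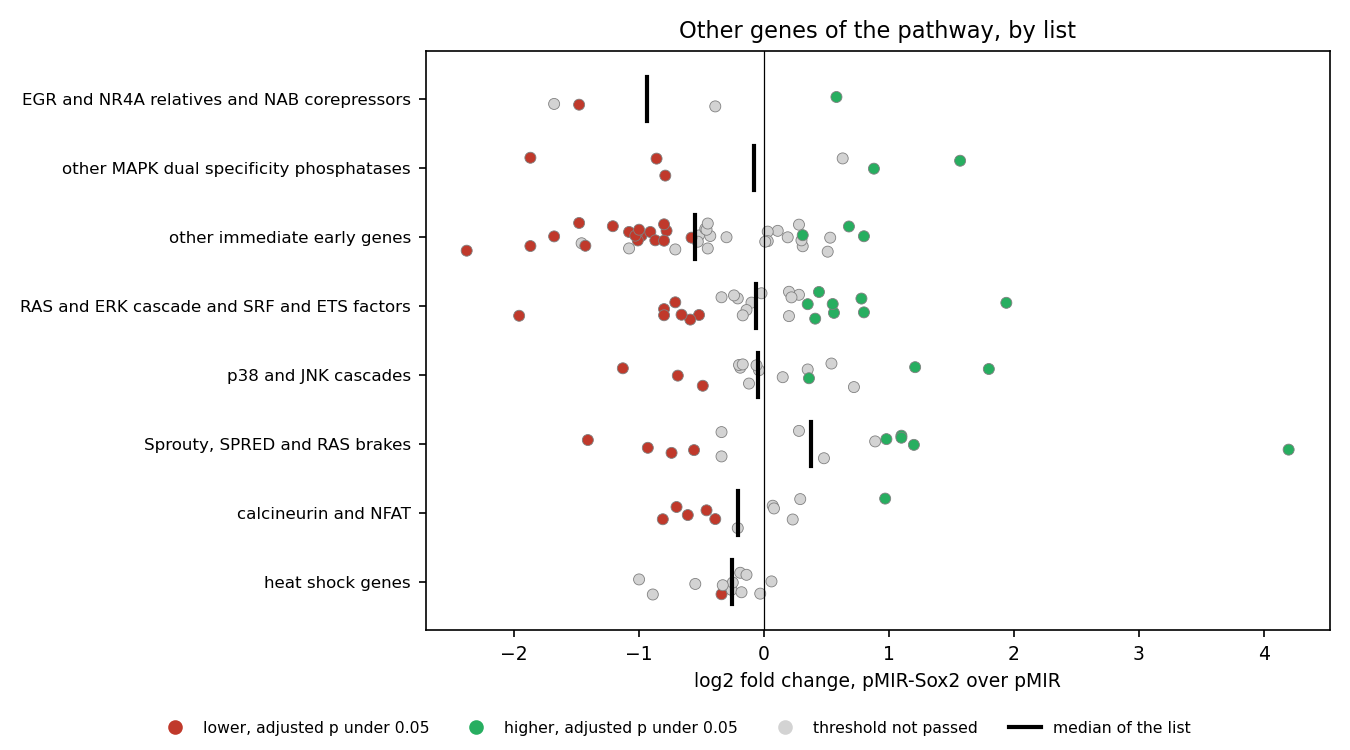
Log2 fold change of pMIR-Sox2 over pMIR (horizontal axis) for each tested gene of the 8 lists (rows), red where the gene fell, green where it rose and grey where it did not pass; the black bar is the list's median and vertical scatter within a row has no meaning. The other immediate early genes have a median of -0.55, and the MAP kinase phosphatases are split between 3 that fell and 2 that rose.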

How the data were processed

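Raw counts per Ensembl gene were deposited by the authors for 6 libraries. The submitters' processing notes name HTSeq 0.6.1p1, SAMtools 0.1.19, Bowtie2 2.2.2, TopHat2 2.0.11 and Trimmomatic 0.32, and the build mm9. Strand setting and annotation release are not given in the sources used here. Lines that name no gene, such as reads not aligned or not unique (46.8 to 48.1% of a library's total), stayed out. Groups come from the sample titles. The members, lists and tests were chosen with earlier results of these data known. The test was that of edgeR 4.0.16 under R 4.3.3 (filterByExpr, TMM, robust quasi-likelihood, Benjamini-Hochberg over 12899 genes). SE is the size of the log2 fold change over the square root of F, and 95% intervals use the fit's degrees of freedom. The fit was checked on simulated counts with known changes, in which far fewer genes changed than in the data. It recovered 17 of 49 genes changed 1.5-fold and 37 of 49 changed 2-fold. At 4-fold it recovered 45 of 47 and at 8-fold 50 of 50, with 11 false calls among 12749 genes. Changes of 2-fold or less, and at times of 4-fold, can therefore be missed.

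Same-numbered libraries deviated together from their group means (correlations 0.242, 0.359 and 0.189 over 12899 genes). The numbers also match in the sample descriptions. These libraries were treated as pairs in the fit with the replicate block and in the differences between libraries of the same number. The fit behind the calls left the pairs out, as did the permutation tests. Beside all 10 genes, the text names up to 3 genes a list and direction, those with the smallest adjusted p where the higher group averaged at least 5 CPM, and the 5 nearest profiles. Genes named otherwise are said to be. A gene that this rule selects is not reported here. Dusp8, on 2 rows of the table, was not used, and Hras, Spry3 and Adgre1 (listed as Emr1) matched no row by symbol. Alternatives were DESeq2 size factors, library totals, no filter, the DESeq2 Wald test (1.42.0), limma-voom (3.58.1), a replicate block and leaving out each library. Sequences are from the RefSeq promoter table (GRCm38.p6).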

Additional observations from a re-analysis of the deposited data

How the results depend on the processing

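Of the 10 genes, 6 fell and 0 rose with DESeq2 size factors, library totals only, no filter, the DESeq2 Wald test and limma-voom, and 7 fell in the fit with the replicate block, the same 6 and Dusp1. Over all genes tested, 3314 fell and 3487 rose with the block, against 2577 and 2991 without it. With 1 library left out the number that fell was 6 to 7. With the replicate block, 2 fell among the EGR, NR4A and NAB list, 5 rose in the p38 and JNK cascades, 3 rose among calcineurin and NFAT genes and 6 heat shock genes fell, and the block moved no other count by over 1.5 times and of the 10 genes changed the call of Dusp1 only. By limma-voom 2 of the EGR, NR4A and NAB list fell. With library totals only, 3 calcineurin and NFAT genes fell, 2 rose and 0 heat shock genes fell, and 2 heat shock genes fell by the DESeq2 Wald test. With 1 library left out, counts ran from 1 to 2 (fell) and 0 to 1 (rose) in the EGR, NR4A and NAB list. In other immediate early genes they ran from 14 to 25 (fell) and 1 to 4 (rose). They ran from 5 to 9 (rose) in the RAS and ERK cascade, 3 to 5 (fell) and 1 to 2 (rose) in calcineurin and NFAT, and 0 to 3 (fell) in heat shock genes. Over all genes tested, 1783 to 2885 fell. List counts not given here stayed within 1.5 times of those with all libraries. The log2 fold change then ran from -0.43 to 0.07 for Egr1, from -0.53 to 0.07 for Nr4a3 and from -0.36 to 0.27 for Ier3, and the log2 difference of Egr3 to Egr2 from -0.08 to 0.41. Causes were not tested. Of 612 values of the 51 named genes under 12 alternatives, 586 kept direction and side of the threshold, 18 lost the call, 2 gained it (both Dusp1) and 6 changed sign (Egr1, Nr4a3 and Ier3). The motif counts stayed within 1.5 times when only the 250 bases before the start were searched. Nr4a3 and Ier3 had 65 to 161 counts per library.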
